A study of Mus musculus with 8 samples.

Results

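The comparison set R1 mouse embryonic stem cells transfected with siRNA 1, a small interfering RNA directed at the transcript CnAb1, against R1 cells transfected with a control siRNA. It used 6 of the 8 arrays in the series: 3 titled siRNA 1 (replicates 1, 2 and 3) and 3 titled Control (replicates 1, 2 and 3). Both groups were R1 cultures held in the pluripotent state per the growth protocol, while the sample titles mention differentiation. The labels give no other treatment or genetic change, and both groups were harvested 48 hours after transfection. Total RNA was hybridised to Affymetrix arrays, 1 array per sample. The other 2 arrays held cells given siRNA 2, another siRNA to CnAb1, and entered the choice of probe sets, the mean signal of a gene and the estimate of the spread between replicates; their values are also placed side by side with the others. The comparison asks which transcripts are higher or lower when siRNA 1 is given, over 19935 genes with 1 probe set each. The labels give neither the sequence of siRNA 1 nor the origin of the replicates (separate cultures or repeats of one), so p-values rest on the spread among these arrays, part or all of which may be technical. All values are log2 expression, and each difference is siRNA 1 minus control on that scale.

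Calcineurin is a phosphatase made of a catalytic A subunit and a regulatory B subunit, and calcium-bound calmodulin switches it on. Its best known substrates are the NFAT transcription factors, which enter the nucleus once calcineurin removes their phosphates. CnAb1 is spliced from the gene of the beta catalytic subunit, Ppp3cb, and ends in a carboxyl terminus of its own in place of the autoinhibitory region. Mouse embryonic stem cells in pluripotent culture express the naive pluripotency factors, and a small fraction of them at any time carries transcripts of the early cleavage embryo.

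The arrays carried stem cell RNA by their markers, as 12 of 12 stem cell markers lay above the upper quartile of every array, with a mean level of 12.61 to 12.70. Array medians lay between 8.35 and 8.39. The 3 controls correlated with each other at 0.9985 to 0.9989 over all genes, and the 3 siRNA 1 arrays at 0.9949 to 0.9976, so the siRNA 1 arrays were less alike. The median SD of a gene was 0.056 over the controls and 0.095 over the siRNA 1 arrays, and the siRNA 1 SD was the larger for 73.8% of genes. Replicates 1 and 2 of siRNA 1 were the least alike pair. Their lower quartiles, 7.07 and 7.25, were the lowest and the highest of the 6 arrays.

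With siRNA 1, the genes nearest to a difference were lower for Amot, a junction protein of the Hippo pathway, for the early embryo genes Tdpoz3, Eif4a3l1 and Pramel19, for Cer1, a secreted Nodal inhibitor, for the arginase Arg2 and for the natural killer cell ligand H60b. On the higher side stood Crip1, a LIM domain protein, the chemokine Ccl2, the cytokine subunit Il23a and the collagenase Mmp13. The differences were small, from 1.16-fold for Mppe1 to 1.76-fold for Tdpoz3 among 24 genes, the 12 of smallest p in each direction with predicted gene models left out. None of the 19935 genes was called: limma's moderated test gave 0 genes (0.0%) at an adjusted p under 0.05, and the smallest adjusted p was 0.805. The unadjusted p was under 0.05 for 1063 genes (5.33%): 604 lay higher (3.03%) and 459 lower (2.3%), where chance alone gives 997.

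The differences themselves were narrow. The median over all genes was 0.016, and without the outer 1% on each side the range was -0.217 to 0.217. A difference of 0.25 or more in size was reached by 183 genes (0.918%), of which 73 were higher and 110 lower. No gene was higher by 0.5, 8 genes were lower by that much, and 0 differed 2-fold. For 19930 genes the 95% interval of the difference held no change beyond 2-fold, and for 99.6% none beyond 1.5-fold. The plot of difference against mean level shows the spread of all genes, with the nearest genes mostly at middle and low signal.

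**Figure D1:**
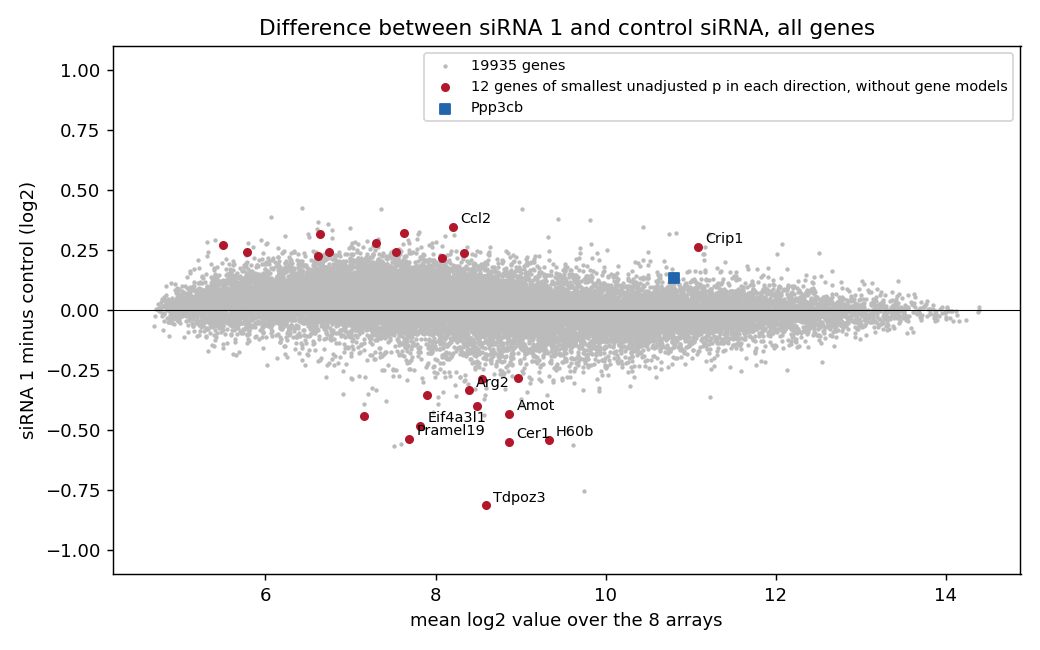
Difference between siRNA 1 and control siRNA (vertical axis, log2) against the mean log2 value over the 8 arrays (horizontal axis), 1 grey point per gene for 19935 genes. Red points are the 12 genes of smallest unadjusted p in each direction, without predicted gene models, and the blue square is Ppp3cb at 0.13; the cloud lies almost wholly between -0.25 and 0.25, and Tdpoz3 at -0.81 lies lowest.

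More genes lay higher than lower, and the share differed with the signal of the probe set. Probe sets respond differently, so a signal ranks probe sets and not transcript amounts. The difference was above 0 for 11691 genes (58.6%) and below 0 for 8244 (41.4%). In the dimmest quintile of genes by mean signal the median difference was 0.042, with 198 genes higher and 17 lower at an unadjusted p under 0.05. In the next quintile it was 0.053 (182 higher, 53 lower), and in the middle quintile 0.026 (135 higher, 117 lower). In the next and the brightest quintiles it turned to -0.015 and -0.01, with 58 and 31 genes higher against 190 and 82 lower. Single arrays set much of this pattern: the second quintile from below lay at -0.046, 0.142 and 0.065 on replicates 1, 2 and 3 of siRNA 1, and the second from above at 0.047, -0.091 and -0.007. Single controls moved as well. Against the other controls, control replicates 1, 2 and 3 lay at 0.039, -0.033 and -0.006 in the dimmest quintile. In the second quintile from below they lay at 0.046, -0.054 and 0.006. The split also moved with the scaling of the arrays. With quantile normalization repeated it was 551 higher and 746 lower (42.5% higher in place of 56.8%), and with arrays centred on their medians 351 higher and 719 lower (32.8% higher).

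The targeted gene was not lower. Ppp3cb, read by probe set 10417895, stood at 10.7, 10.55 and 10.64 on the controls and at 10.52, 10.68 and 11.09 on the siRNA 1 arrays, against 11.07 and 11.16 on the siRNA 2 arrays. Replicate 3 of siRNA 1 was above all controls, while replicates 1 and 2 lay at the lower edge of the controls and among them. The difference was 0.13 (SE 0.12, 95% interval -0.14 to 0.41, adjusted p = 0.88 in limma). That SE and interval take 1 spread for all groups, while the SD of Ppp3cb was 0.07 over the controls and 0.29 over the siRNA 1 arrays. A two-sided exact permutation test gave p = 0.7, and 0.1 is the smallest p that 20 splits of 6 arrays can give. Without replicate 3 the difference was -0.029, with replicate 3 as the sole siRNA 1 array it was 0.458 (adjusted p = 0.0956), and with limma's array weights it was 0.388 (adjusted p = 0.0355, in a range of 0.0355 to 1 over the alternatives). The annotation gives this probe set to the whole gene, with no splice form named, so its values do not check the knockdown of CnAb1.

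Rhox9, a homeobox gene of germ and placental cells with the brightest probe set of the germ cell list, had the same arrangement of arrays. It read 10.86, 10.79 and 10.87 on the controls, 10.84, 10.82 and 11.34 on siRNA 1 replicates 1, 2 and 3, and 11.39 and 11.47 with siRNA 2. Replicate 3 of siRNA 1 thus lay next to the siRNA 2 arrays for Rhox9 as for Ppp3cb, and replicates 1 and 2 lay among the controls. The fitted difference of Rhox9 was 0.16 (SE 0.12, adjusted p = 0.87 in limma) and -0.01 without replicate 3.

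The other genes around calcineurin lay near their control levels. The 22 tested members of the calcineurin list had a median of 0.013 (13 higher, 9 lower), and 1 passed an unadjusted p under 0.05 (Rcan3), beside 5.33% of all genes. Ppp3ca, the alpha catalytic subunit, read 10.04, 10.0 and 9.93 with control siRNA and 9.93, 9.88 and 9.81 with siRNA 1, a difference of -0.12 (SE 0.07). Its groups met at 9.93 without crossing. Rcan3, of the family of calcineurin inhibitors, read 8.82, 8.84 and 8.85 with control siRNA and 8.97, 8.9 and 9.07 with siRNA 1 (0.14, SE 0.06, adjusted p = 0.87 in limma), every siRNA 1 array above every control. Rcan1, whose transcription NFAT is known to drive, differed by -0.08 (SE 0.07). Among the NFAT factors Nfatc1 differed by 0.05, Nfatc2 by 0.02, Nfatc3 by 0.02 and Nfatc4 by 0.0, each with an SE of 0.05 to 0.08. Nfat5, the member that calcineurin does not regulate, read 10.46, 10.35 and 9.86 on the siRNA 1 arrays against 10.35 to 10.45 on the controls, a difference of -0.19 (SE 0.13) with replicate 3 apart from the other arrays.

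The lowest genes relative to control were read array by array. Amot, an angiomotin that binds the coactivator YAP and sits at tight junctions, read 9.09, 9.05 and 9.06 with control siRNA and 8.73, 8.54 and 8.64 with siRNA 1. Its difference was -0.43 (SE 0.06, 95% interval -0.57 to -0.29, 1.35-fold lower), with the smallest unadjusted p of all genes, 4.91e-05, and an adjusted p of 0.805 in limma. Amot read 8.86 and 8.97 with siRNA 2, between both groups. Its relatives were closer to control: Amotl1 differed by -0.09 (SE 0.05), with every siRNA 1 array below every control, and Amotl2 by 0.05 (SE 0.06). The 24 tested genes of the Hippo pathway and its YAP targets split evenly (12 higher, 12 lower, median 0.008). Ccn2, a YAP target, read 12.25, 12.19 and 12.22 against 12.26, 12.22 and 12.23.

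Tdpoz3, a gene of oocytes and early embryos, had the largest difference. It read 8.89, 9.31 and 8.95 with control siRNA and 8.27, 8.0 and 8.43 with siRNA 1 (-0.81, SE 0.13, 95% interval -1.09 to -0.53). Control replicate 2 was the highest array and siRNA 1 replicate 2 the lowest. Eif4a3l1, a close relative of the RNA helicase gene Eif4a3, read 8.08, 8.22 and 8.02 against 7.62, 7.46 and 7.79 (-0.48, SE 0.09), while Eif4a3 itself differed by 0.01 (SE 0.06). Pramel19, of a gene family expressed in germ cells and early embryos, read 7.78, 8.1 and 7.92 against 7.36, 7.24 and 7.6 (-0.54, SE 0.1). With siRNA 2, Tdpoz3 read 8.46 and 8.41 and Eif4a3l1 7.7 and 7.66, both below all controls, and Pramel19 read 7.77 on both arrays, just under the lowest control. The siRNA 2 arrays were set against the same controls, so these values add no independent comparison.

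Cer1 encodes Cerberus, which binds and blocks Nodal and BMP ligands outside the cell. It read 9.2, 9.03 and 9.04 with control siRNA and 8.33, 8.55 and 8.74 with siRNA 1, with no overlap, and 8.93 and 9.07 with siRNA 2 (-0.55, SE 0.1, 95% interval -0.77 to -0.32). Lhx1, a LIM homeobox factor of the mesendoderm and its derivatives, read 8.67, 8.56 and 8.67 against 8.4, 8.29 and 8.35 (-0.29, SE 0.06), and 8.66 and 8.75 with siRNA 2. Both siRNA 2 arrays were thus within or above the control range for Lhx1 and within or just below it for Cer1. Hhip, a membrane protein that captures hedgehog ligands, read 7.99, 8.17 and 8.14 against 7.81, 7.78 and 7.65 (-0.35, SE 0.07).

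H60b encodes a ligand of the activating receptor NKG2D on natural killer cells. It read 9.58, 9.79 and 9.5 with control siRNA and 9.15, 8.95 and 9.16 with siRNA 1 (-0.54, SE 0.09, 95% interval -0.74 to -0.34). Arg2, the mitochondrial arginase, read 8.52, 8.59 and 8.51 against 8.2, 8.12 and 8.31 (-0.33, SE 0.06). In both the siRNA 1 arrays lay below every control, with replicate 2 the lowest. Over the 13 tested genes of the NKG2D ligand and MHC class I list the median was -0.018 (6 higher, 7 lower). Over the 21 tested genes of arginine and polyamine metabolism it was 0.026 (12 higher, 9 lower), with Oat, ornithine aminotransferase, at -0.12 (SE 0.05) and Arg1, the liver arginase, at 0.15 (SE 0.11). Over all genes the median was 0.016, and 41.4% of genes were lower.

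The remaining genes of the 12 lowest by p were Pla2g4c, a cytosolic phospholipase, Tmprss11d, an airway serine protease, and Slc47a1, a proton-coupled exporter of drugs and cations. Pla2g4c read 8.54, 8.68 and 8.74 with control siRNA and 8.33, 8.35 and 8.09 with siRNA 1 (-0.4, SE 0.08). Tmprss11d read 7.5, 7.59 and 7.28 against 7.14, 6.91 and 6.98 (-0.44, SE 0.09). Slc47a1 read 9.22, 9.19 and 9.06 against 8.84, 8.9 and 8.89 (-0.28, SE 0.06). With siRNA 2 Tmprss11d (7.02 and 6.82) and Slc47a1 (8.87 and 8.76) also read below all controls, and Pla2g4c (8.54 and 8.6) did not. Every one of the 12 had an adjusted p of 0.805 in limma.

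On the higher side, Crip1 had the smallest p of the genes that were not predicted gene models. It encodes a small LIM domain protein and has a bright probe set, with 10.95, 10.9 and 10.93 on the controls and 11.2, 11.17 and 11.21 on the siRNA 1 arrays. The difference was 0.26 (SE 0.05, 95% interval 0.15 to 0.37, 1.20-fold, adjusted p = 0.805 in limma), and siRNA 2 gave 11.2 and 11.13. Ccl2, the chemokine that attracts monocytes, read 8.03, 7.99 and 8.12 against 8.46, 8.47 and 8.25 (0.35, SE 0.07). Il23a, an interleukin subunit gene, read 7.44, 7.51 and 7.55 against 7.75, 7.87 and 7.84 (0.32, SE 0.07). With siRNA 2 Ccl2 read 8.17 and 8.18, between both groups, and Il23a 7.63 and 7.44, near the controls.

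Mmp13, a collagenase, read 7.26, 7.25 and 7.13 with control siRNA, 7.5, 7.48 and 7.5 with siRNA 1 and 7.09 and 7.24 with siRNA 2 (0.28, SE 0.06). Sh2b2, an adaptor of receptor tyrosine kinases, read 8.22, 8.16 and 8.24 against 8.44, 8.45 and 8.44 (0.24, SE 0.05). Leng9 read 7.45, 7.39 and 7.46 against 7.69, 7.7 and 7.63 (0.24, SE 0.05), and Mppe1, a phosphoesterase of GPI anchor processing, 7.95, 7.96 and 7.99 against 8.15, 8.23 and 8.17 (0.22, SE 0.05). The 3 siRNA 1 values of each of these genes lay within 0.08 of each other. The other 5 genes of the 12, Ceacam15, Pramel27, Mir199b, Olfr1252 and Krt25, lay below the lower quartile on every array, and whether they were detected is unknown. Their differences ran from 0.22 to 0.32. None of the 12 lower genes was that dim.

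For all 24 of these genes each siRNA 1 array lay on the same side of every control. They were picked by p from these arrays, which favours such a separation. Over all genes, 1238 (6.21%) had every siRNA 1 array above every control and 909 (4.56%) had every one below. The adjusted p was 0.805 or 0.814 for each of the 24. Array weights called all 24, and no other fit tried called any of them. The plot of single arrays shows that replicate 2 of siRNA 1 was most often the farthest out among the lower genes.

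**Figure D2:**
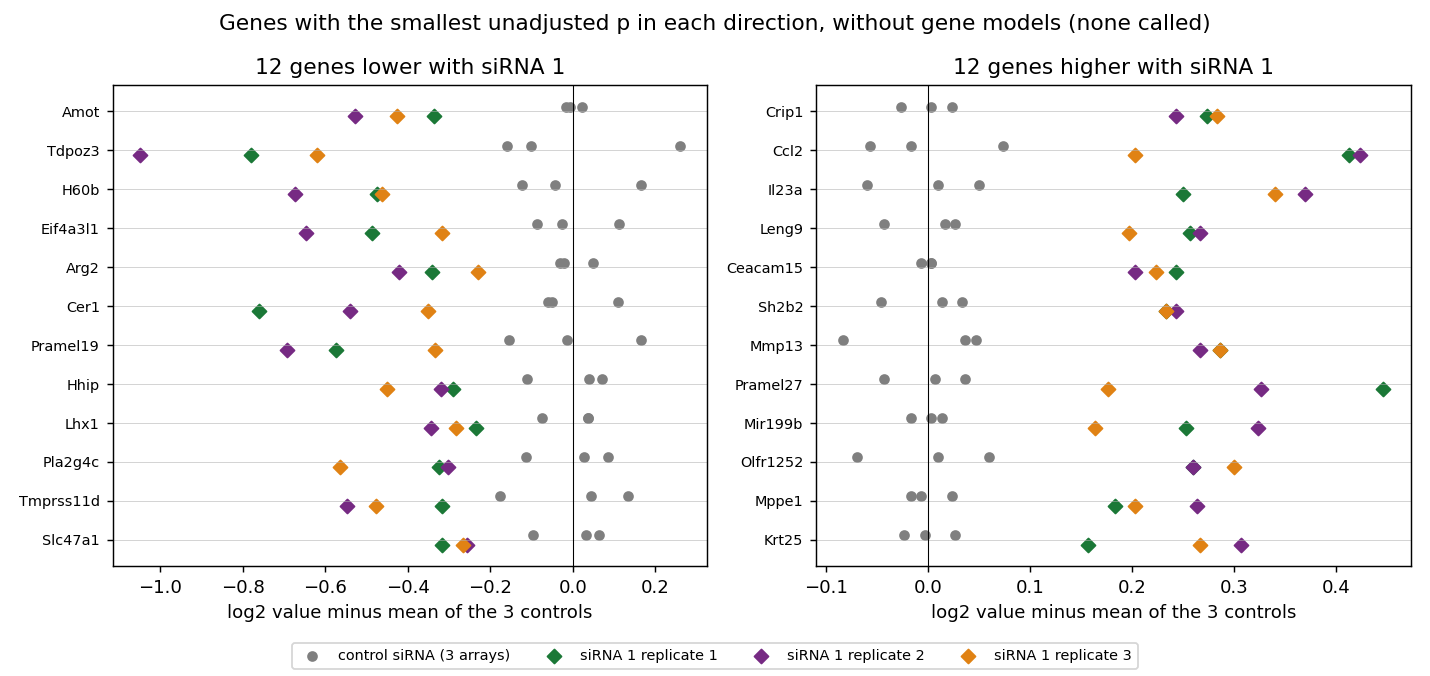
Log2 value of each array minus the mean of the 3 controls (horizontal axis) for the 12 genes lower and the 12 genes higher with siRNA 1 that had the smallest unadjusted p in their direction, without predicted gene models, 1 gene per line. Grey circles are the controls and coloured diamonds the siRNA 1 replicates; in each gene the diamonds lie to one side of the circles, by 0.22 to 0.81 in the fitted difference, and none of the genes was called.

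Promoter sequence was read for the genes nearest to a difference because NFAT factors, the known targets of calcineurin, bind a short core. The letters TGGAAA were searched on both strands in windows of 300 bases, 250 before and 50 after the start of the gene, from RefSeq on build GRCm38.p6. Of the 24 genes 16 were in the promoter table, and 4 of these held the letters: 2 of 8 higher genes (Mmp13 and Olfr1252) and 2 of 8 lower genes (Pramel19 and Pla2g4c). Over all 15612 tested genes with a window, 3014 (19.3%) held them. A match is a description of the letters and not a binding site. Shown are the first of these genes by p in each direction and the nearest gene with the letters in each direction, 5′ to 3′ on the strand of the gene, with the match in capitals. They are Amot (chrX:145487590-145487889, minus strand), Pramel19 (chr4:101940157-101940456, plus strand), Crip1 (chr12:113151762-113152061, plus strand) and Mmp13 (chr9:7272264-7272563, plus strand).
Amot: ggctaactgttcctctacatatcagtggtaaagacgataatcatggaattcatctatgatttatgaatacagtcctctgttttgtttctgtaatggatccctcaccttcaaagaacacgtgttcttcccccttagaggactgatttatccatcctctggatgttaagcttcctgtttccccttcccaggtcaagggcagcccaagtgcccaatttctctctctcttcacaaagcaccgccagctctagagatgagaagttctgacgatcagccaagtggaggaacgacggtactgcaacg
Pramel19: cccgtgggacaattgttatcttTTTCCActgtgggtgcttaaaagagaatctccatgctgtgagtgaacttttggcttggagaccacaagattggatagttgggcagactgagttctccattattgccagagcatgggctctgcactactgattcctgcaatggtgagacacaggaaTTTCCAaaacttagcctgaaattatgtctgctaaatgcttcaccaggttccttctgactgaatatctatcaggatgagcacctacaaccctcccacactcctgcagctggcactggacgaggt
Crip1: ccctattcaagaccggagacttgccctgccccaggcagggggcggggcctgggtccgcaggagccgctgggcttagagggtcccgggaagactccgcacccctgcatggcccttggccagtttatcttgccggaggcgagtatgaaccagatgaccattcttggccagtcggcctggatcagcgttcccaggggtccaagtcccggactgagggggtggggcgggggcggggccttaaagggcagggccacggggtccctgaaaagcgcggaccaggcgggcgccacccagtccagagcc
Mmp13: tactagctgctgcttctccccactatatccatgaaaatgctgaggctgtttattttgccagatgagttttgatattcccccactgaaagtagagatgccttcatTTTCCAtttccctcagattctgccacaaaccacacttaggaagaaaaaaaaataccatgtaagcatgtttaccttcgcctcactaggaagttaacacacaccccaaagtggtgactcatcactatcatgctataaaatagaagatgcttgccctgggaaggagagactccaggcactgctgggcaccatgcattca
The windows of Amot and Crip1 hold no match, that of Mmp13 holds 1, at position -146 from the start, and that of Pramel19 holds 2. These are the genes at 8.73, 8.54 and 8.64 against a control level of 9.07 (Amot), at 7.36, 7.24 and 7.6 against 7.93 (Pramel19), at 11.2, 11.17 and 11.21 against 10.93 (Crip1) and at 7.5, 7.48 and 7.5 against 7.21 (Mmp13).

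Genes of the 2-cell-like state, a passing condition of stem cells that resembles the early cleavage embryo, lay lowest of the 35 gene lists. Of 27 listed genes 13 were tested, and 12 of these were lower and 1 higher. The median difference was -0.333, against 0.016 over all genes. At an unadjusted p under 0.05 there were 9 lower members, and 8 had every siRNA 1 array below every control, beside 2.3% and 4.56% of all genes. No member was called. The list was widened with Tdpoz3, Eif4a3l1 and Arg2 among its members when their values were known, so its count is not independent evidence of its direction. Of the Zscan4 genes, the usual markers of this state, none was among the tested genes.

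The 2-cell-like genes did not lie alike on the controls. Their median was -0.341, -0.424 and -0.212 on replicates 1, 2 and 3 of siRNA 1 against the control mean. On the control arrays it was -0.146, 0.247 and -0.061 against the other controls, so control replicate 2 lay above the rest. That reference differs from the control mean used for the siRNA 1 arrays, so the sizes are not directly comparable. Without control replicate 2 the median was -0.231. Over 20 alternatives it ran from -0.437 to -0.212. The number of cells in this state and the RNA per cell cannot be told apart in RNA from a whole culture.

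Within that group Tdpoz2 read 8.12, 8.35 and 8.08 with control siRNA and 7.59, 7.79 and 7.89 with siRNA 1 (-0.43, SE 0.09). These are values of the brighter of its 2 probe sets, and with both averaged the difference was -0.25. The dim members Tdpoz1 (listed) and Tdpoz8 (of the same family, not listed) differed by 0.05 (SE 0.12) and -0.05 (SE 0.07). The Usp17l genes encode deubiquitinases that are close copies of each other, so their probe sets may share signal. Usp17lb read 8.29, 8.7 and 8.35 against 8.14, 8.01 and 8.12 (-0.36, SE 0.1). Usp17la read 7.43, 8.43 and 7.87 against 7.45, 7.26 and 7.34 (-0.56, SE 0.2). Here control replicate 2 was again the highest array, and control replicate 1 lay among the siRNA 1 arrays. Usp17lc differed by -0.33 (SE 0.12) and Usp17ld by -0.19 (SE 0.15). With siRNA 2 Usp17lb read 8.07 and 8.2 and Usp17la 7.43 and 7.56.

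General and naive pluripotency factors were at control level. The median over the 29 tested was 0.003 (16 higher, 13 lower), and 2 passed an unadjusted p under 0.05, both higher, beside 3.03% of all genes. Dppa3, a maternal protein that marks naive cells and germ cells, read 9.68, 9.58 and 9.55 with control siRNA and 10.14, 9.78 and 10.01 with siRNA 1 (0.37, SE 0.09, 95% interval 0.17 to 0.58, adjusted p = 0.826 in limma). It read 9.77 and 9.97 with siRNA 2, so all siRNA arrays lay above all controls on this probe set. Dppa3 has 2 probe sets, and with both averaged the difference was 0.26. Tcl1, a cofactor of Akt kinases, read 11.59, 11.48 and 11.46 against 11.68, 11.64 and 11.68 (0.16, SE 0.05), while siRNA 2 gave 11.37 and 11.39, on the other side of the controls. Nanog differed by 0.07 (SE 0.06), Zfp42 by -0.05 (SE 0.08) and Utf1 by 0.06 (SE 0.06). Dppa5a, with the brightest probe set of the list, read 13.77, 13.69 and 13.76 against 13.74, 13.77 and 13.77.

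Genes of the formative and primed epiblast, the next stage of development, lay mostly lower. Of 16 tested 13 were lower and 3 higher, with a median of -0.088, where 41.4% of all genes were lower. These genes were bright as a group: 15 of the 16 lay above the median gene. Among the 9968 genes at or above the median mean 44.0% were higher, against 58.6% of all genes, so bright genes tended to lie lower. At an unadjusted p under 0.05 there were 4 lower members, beside 2.3% of all genes. In a limma fit to those 9968 genes alone, 418 were lower at that threshold. Cdh2, N-cadherin, read 10.03, 10.07 and 10.05 with control siRNA and 9.8, 9.6 and 9.95 with siRNA 1 (-0.27, SE 0.08), with no overlap, and 10.05 and 10.12 with siRNA 2. Fgf5, the classic marker of the primed epiblast, read 9.97, 9.9 and 9.96 against 9.79, 9.72 and 9.84 (-0.16, SE 0.06), and 9.94 and 10.09 with siRNA 2. Nodal, the ligand that keeps the epiblast, read 11.82, 11.82 and 11.87 against 11.76, 11.72 and 11.65 (-0.13, SE 0.05). Fgf15 differed by -0.13 (SE 0.06). Cldn6, a claudin, lay on the other side at 0.14 (SE 0.07). The list lay at -0.08, -0.107 and -0.005 on replicates 1, 2 and 3 of siRNA 1, so replicate 3 hardly took part, and over 20 alternatives its median ran from -0.109 to -0.005.

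In the Nodal and Activin pathway 14 of 21 tested genes were lower and 7 higher, with a median of -0.041 and 2 lower at an unadjusted p under 0.05, the ligand gene Nodal and the inhibitor gene Cer1, beside 2.3% of all genes. The receptor gene Acvr2a differed by -0.14 (SE 0.07) and the coreceptor gene Tdgf1 by -0.02 (SE 0.05). Inhba, which encodes the Activin A chain, read 9.06, 9.09 and 9.28 with control siRNA and 9.85, 9.15 and 9.34 with siRNA 1 (0.3, SE 0.15), a difference carried by replicate 1. The median turned to 0.008 with replicate 3 as the sole siRNA 1 array.

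Lineage genes gave values on both sides of control. The 21 endoderm genes had a median of 0.048 (16 higher, 5 lower), with 2 higher at an unadjusted p under 0.05, beside 58.6% and 3.03% of all genes. Col4a2, a basement membrane collagen of primitive endoderm, read 8.45, 8.32 and 8.36 with control siRNA and 8.55, 8.51 and 8.52 with siRNA 1 (0.15, SE 0.06). The transcription factor gene Sox7 differed by 0.15 (SE 0.07) and Sparc, a matrix protein, by 0.1 (SE 0.05). Over the alternatives the median of this list ran from 0.004 to 0.086. The 17 trophectoderm genes had a median of 0.04 (12 higher, 5 lower) that turned to -0.016 without control replicate 2.

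Among 19 neuroectoderm genes 11 were lower and 8 higher, with a median of -0.025, where 41.4% of all genes were lower. At an unadjusted p under 0.05 there were 4 lower and 1 higher, beside 2.3% and 3.03% of all genes. Neurod1, a proneural transcription factor, read 9.37, 9.6 and 9.49 with control siRNA, 9.27, 9.13 and 9.01 with siRNA 1 and 9.28 and 9.31 with siRNA 2 (-0.35, SE 0.08, adjusted p = 0.805 in limma). Meis2, a homeobox gene, read 8.79, 8.84 and 8.88 against 8.72, 8.61 and 8.5 (-0.23, SE 0.07). Map2, of the neuronal cytoskeleton, differed by -0.17 (SE 0.06), and Neurog1 by 0.17 (SE 0.07). In Neurod1, Meis2 and Map2, picked among the members of smallest p, the groups did not overlap. Of the 19 genes 4 had every siRNA 1 array below every control, beside 4.56% of all genes. The 27 primitive streak and mesoderm genes had a median of 0.002 (14 higher, 13 lower), with Bmp4 at 0.15 (SE 0.06) and Hand1 at 0.17 (SE 0.08) beside Cer1 and Lhx1.

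Germ cell genes, 34 of them, had a median of 0.01 (19 higher, 15 lower), where 58.6% of all genes were higher. At an unadjusted p under 0.05 there were 5 higher and 3 lower members, beside 3.03% and 2.3% of all genes. Gtsf1, a factor of the piRNA pathway, read 8.08, 8.19 and 8.06 with control siRNA, 7.87, 7.88 and 7.88 with siRNA 1 and 7.65 and 7.5 with siRNA 2 (-0.24, SE 0.06). Nanos3, an RNA-binding protein that keeps germ cells alive, read 8.36, 8.37 and 8.5 against 8.56, 8.59 and 8.63 (0.18, SE 0.06), and 8.77 and 8.75 with siRNA 2. Sycp3, of the meiotic chromosome axis, read 9.97, 10.2 and 10.16 against 9.86, 9.87 and 9.96 (-0.21, SE 0.07). The siRNA 2 arrays lay farther from the controls than the siRNA 1 arrays for Gtsf1 and Nanos3, a difference not tested here.

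Cytokine and chemokine genes lay higher in 36 of 48 tested cases, where 58.6% of all genes did, with a median of 0.047. At an unadjusted p under 0.05 there were 4 higher and 0 lower, against 3.03% and 2.3% of all genes. The 4 were Ccl2 and Il23a with Osm, oncostatin M, at 0.17 (SE 0.07), and Ltb, lymphotoxin beta, at 0.13 (SE 0.05). These genes were dim as a group: 8 of the 48 lay above the median gene and 9 below the lower quartile on every array, in the range where all genes tended to lie higher. The list lay at 0.028, 0.113 and 0.054 on replicates 1, 2 and 3 of siRNA 1 and kept its sign in 20 of 20 alternatives, from 0.025 to 0.096. Tgfb1, with the brightest probe set of the list, differed by 0.1 (SE 0.06). Among 29 interferon and RNA sensing genes 17 were higher and 12 lower (median 0.012), and 2 were higher and 0 lower at an unadjusted p under 0.05. The largest difference of this list was on the lower side: Eif2ak2, the kinase PKR that double-stranded RNA activates, read 8.97, 9.08 and 8.97 with control siRNA and 9.11, 8.53 and 8.61 with siRNA 1 (-0.25, SE 0.13), with replicate 1 above every control and replicates 2 and 3 below. Oasl1, an interferon-induced gene, read 8.74, 8.62 and 8.68 against 8.84, 8.95 and 8.85 (0.2, SE 0.06), Irf7 differed by 0.17 (SE 0.07), and Ifnb1, interferon beta, was dim and differed by 0.11 (SE 0.08).

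The 33 genes of cell junctions and cytoskeleton had a median of -0.002 (16 higher, 17 lower), with 4 higher and 2 lower at an unadjusted p under 0.05, beside 3.03% and 2.3% of all genes. Besides Crip1 and Cdh2, Cldn4, a tight junction claudin, read 12.45, 12.34 and 12.37 with control siRNA and 12.7, 12.55 and 12.62 with siRNA 1 (0.24, SE 0.06, adjusted p = 0.826 in limma). Actn3, an alpha-actinin of muscle, read 10.48, 10.52 and 10.44 against 10.3, 10.23 and 10.2 (-0.24, SE 0.05), and 10.12 and 10.09 with siRNA 2. Actb, beta-actin, read 14.37, 14.4 and 14.39 against 14.38, 14.38 and 14.37.

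Stress, growth and metabolic lists lay near 0, and most of their genes were bright. Above the median gene lay 19 of 20 p53 target genes, 35 of 35 complex I genes and 20 of 23 small RNA machinery genes. Among the 9968 genes at or above the median mean 44.0% were higher, so the shares over all genes given here are not matched in signal. The median differences of the 2 brightest quintiles of all genes were -0.015 and -0.01. Of 20 p53 target genes 15 were lower, where 41.4% of all genes were (median -0.024, and below 0 in 20 of 20 alternatives). Among them Eda2r, a receptor of the TNF family, read 11.43, 11.4 and 11.37 with control siRNA and 11.22, 11.23 and 11.23 with siRNA 1 (-0.17, SE 0.05), and Polk, a translesion polymerase, differed by -0.17 (SE 0.05). The 27 cell cycle genes had a median of -0.005, with Rb1 at -0.17 (SE 0.07) and Ccnd2 at -0.15 (SE 0.06). Of 35 subunits and assembly factors of mitochondrial complex I, 25 were higher, where 58.6% of all genes were (median 0.032, above 0 in 20 of 20 alternatives), none with an unadjusted p under 0.05; Ndufa7 came nearest at 0.13 (SE 0.06). Of 23 genes of the small RNA machinery, which handles siRNAs too, 17 were lower (median -0.032), with the uridylyl transferase Tut4 at -0.19 (SE 0.08). Aldoc, a glycolytic aldolase, differed by 0.24 (SE 0.08) and Nsdhl, of cholesterol synthesis, by -0.12 (SE 0.05). The 39 ribosomal protein genes (0.005), 31 proteasome subunits (0.014) and 28 FGF and ERK genes (-0.003), each given by its median, lay close to 0. The plot of the 35 lists sets these medians beside each array.

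**Figure D3:**
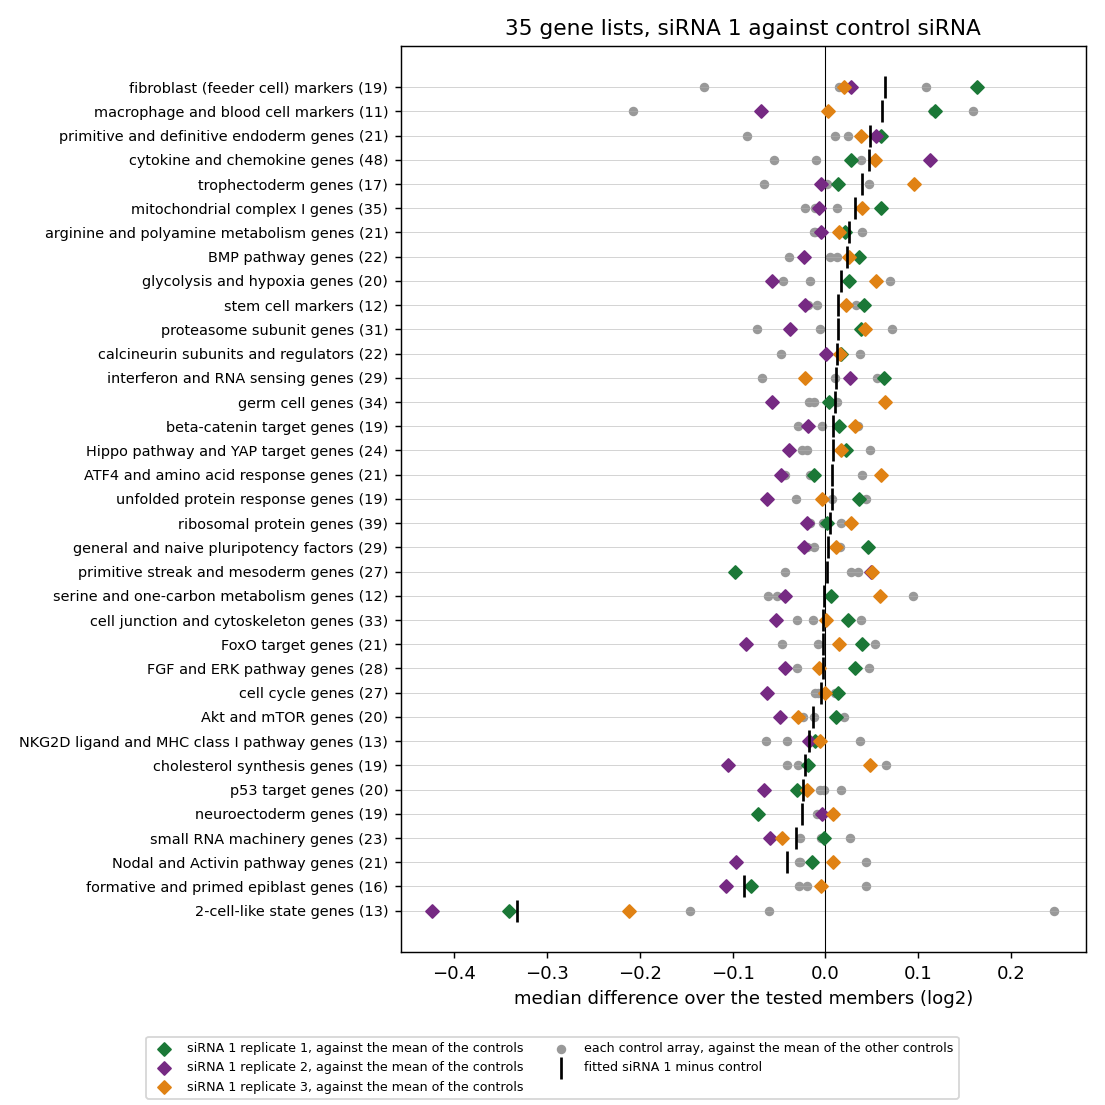
Median difference over the tested members (horizontal axis, log2) of 35 gene lists, with the number of tested members in brackets. Black bars are the fitted siRNA 1 minus control, coloured diamonds the siRNA 1 replicates against the control mean, and grey circles each control against the mean of the other controls; the 2-cell-like genes at -0.333 lie apart, with control replicate 2 at 0.247, and no list held a called gene.

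The siRNA 1 arrays themselves differed most in genes of several kinds. Among the 20 genes with the widest range over the siRNA 1 arrays, C1qb, a complement subunit made by macrophages, read 9.49, 8.49 and 8.61 on replicates 1, 2 and 3, against 8.88, 9.04 and 8.3 on the controls. Lyz2, the lysozyme of macrophages, read 11.12, 10.14 and 10.21 against 10.63, 10.73 and 10.14. Mpeg1, a perforin of macrophages, read 7.99, 7.01 and 7.27 against 7.61, 7.8 and 7.26. Replicate 1 was the highest of all 6 arrays in each, and control replicate 3 was the lowest control in each. Tnc, the matrix protein tenascin C, read 11.08, 10.33 and 10.19 on the siRNA 1 arrays, and Mmp3, the stromelysin, 8.15, 7.61 and 7.07, again highest on replicate 1. The fitted difference of Mmp3 was 0.42, but with an SE of 0.22, and it turned to -0.12 with replicate 3 as the sole siRNA 1 array. The U3 RNA gene Rnu3a read 9.7, 8.37 and 9.1, with the controls at 8.62 to 8.97.

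**Figure D4:**
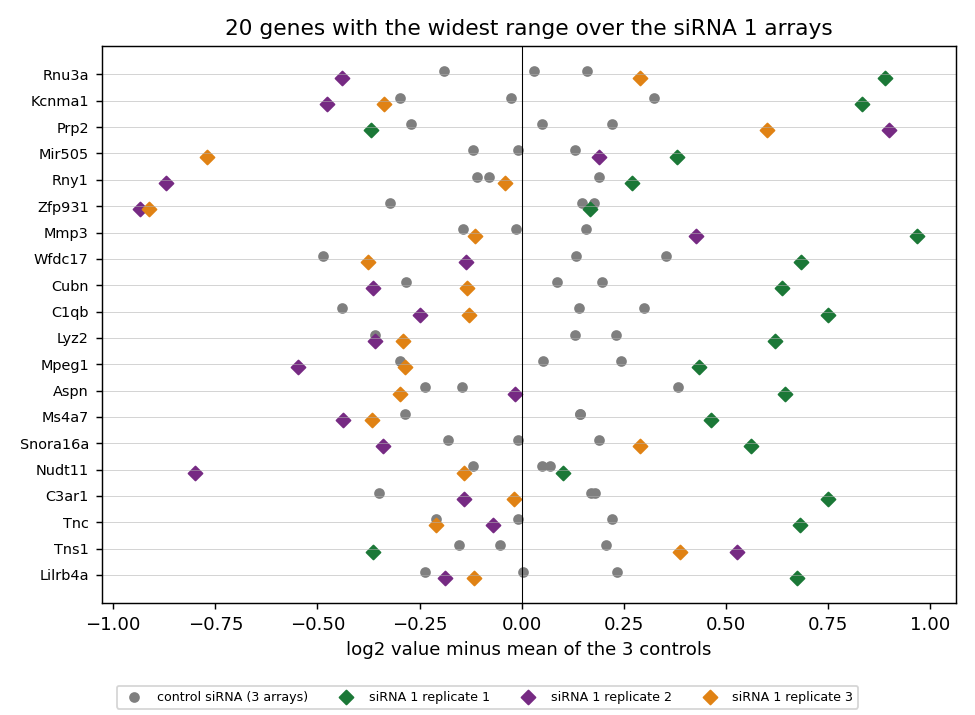
Log2 value of each array minus the mean of the 3 controls (horizontal axis) for the 20 genes with the widest range over the siRNA 1 arrays, 1 gene per line. Grey circles are the controls and coloured diamonds the siRNA 1 replicates; macrophage genes such as C1qb, Lyz2 and Mpeg1 are highest on replicate 1, and Rnu3a spans 1.33.

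Both marker lists of other cells had their highest mean level on siRNA 1 replicate 1. The 19 fibroblast markers, genes of the feeder cells often used under stem cells, had a mean level of 8.63, 8.53 and 8.69 on the controls and 8.82, 8.64 and 8.62 on the siRNA 1 arrays, with 1 of 19 above the upper quartile and 2 below the lower quartile on every array. Of these 16 were higher and 3 lower, where 58.6% of all genes were higher (median 0.064), at 0.164, 0.028 and 0.02 on replicates 1, 2 and 3. Col1a2, a fibrillar collagen chain, read 9.01, 8.82 and 9.07 against 9.19, 9.15 and 9.12 (0.19, SE 0.07), and Col1a1 differed by 0.15 (SE 0.06). The median of the list was -0.05 with control replicate 2 and siRNA 1 replicate 1 left out together. The mean level of 11 macrophage and blood cell markers was 8.08, 8.07 and 7.85 on the controls and 8.24, 7.93 and 7.99 on the siRNA 1 arrays, and their median of 0.061 turned to -0.034 without siRNA 1 replicate 1. Against the control mean, the median of the macrophage and blood cell markers was 0.11, 0.08 and -0.14 on the controls. It was 0.12, -0.07 and 0.0 on the siRNA 1 arrays, so replicate 1 lay close to control replicates 1 and 2. The part of both marker lists in the values of Ccl2, Mmp3, Inhba and the cytokine list was not tested. Ccl2 read 8.46, 8.47 and 8.25 on siRNA 1 replicates 1, 2 and 3 and, like Col1a2, lay above every control on each.

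How many genes passed an unadjusted p under 0.05 turned on single arrays. With all arrays 1063 passed, with control replicate 2 left out 427, and with siRNA 1 replicate 1 left out 4006. With limma's array weights, which let arrays with less residual spread count for more, 1436 genes (7.2%) were called, 630 higher (3.16%) and 806 lower (4.04%). That fit gave siRNA 1 replicate 3 a weight of 3.56 and replicates 1 and 2 weights of 0.308 and 0.411, so its siRNA 1 level rests mostly on replicate 3. In every other fit tried limma called 0 genes. The plot of counts by fit gives the unadjusted counts of each fit except that on all probe sets, where 1226 probe sets passed.

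**Figure D5:**
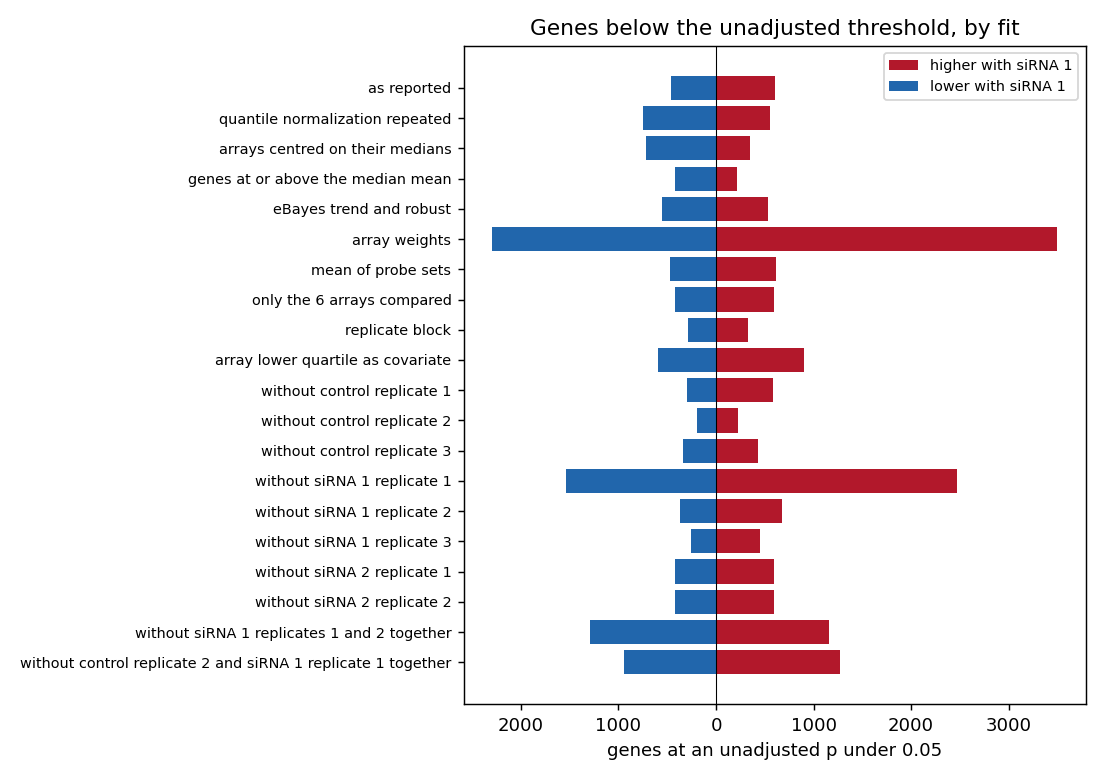
Number of genes at an unadjusted p under 0.05 (horizontal axis), higher with siRNA 1 to the right in red and lower to the left in blue, for the comparison as reported and for the alternatives except all probe sets, 1 fit per line. The counts run from 427 in all without control replicate 2 to 5791 with array weights.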

How the data were processed

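Gene expression was measured on 8 Affymetrix arrays of R1 stem cells. The deposited values are log2 probe-set summaries made with RMA by the authors, per the submitters' processing notes; its version and the array's library file are not given here. RMA draws the distributions of arrays together, which hides any change that most genes share. The table held 28815 probe sets: the platform annotation pairs 21780 with 1 symbol, 1605 with several and 5430 with none. Each of 19935 genes was read by its brightest probe set on average over the 8 arrays (998 had a choice). A RefSeq identifier was found for 21689 probe sets, and 0 symbols changed. Groups come from the sample titles, which mention differentiation where the growth protocol states pluripotent culture. Arrays have no read depth, and their number limits precision.

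Limma 3.58.1 in R 4.3.3 fitted 1 mean per group to all 8 arrays (lmFit, eBayes, two-sided p, Benjamini-Hochberg over all genes, called under 0.05). SE and 95% intervals are from that model, which assumes an equal spread in all groups for each gene. Named genes were the 12 of smallest p and the 6 of largest difference in each direction without gene models, the calcineurin list with Ppp3cb, and from each of 35 lists the brightest member and at most 4 of smallest p; others were chosen after their values were seen. The comparison, members and lists were chosen with earlier results of these data known. Lists are described by counts and medians, with no test. Tables used Python 3.11.15, pandas 2.3.3 and numpy 2.4.6, and figures matplotlib 3.10.9. The fit was tested on simulated data.

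There were 20 alternatives, 1 of them chosen after seeing the data (leaving out control replicate 2 and siRNA 1 replicate 1 together): repeated quantile normalization, median centring, a filter at the median mean, trended robust moderation, array weights, averaged probe sets of a gene, all probe sets, only the 6 arrays compared, the replicate number as a block, the lower quartile as a covariate, each array left out in turn, and siRNA 1 replicates 1 and 2 left out together. No 2 arrays held identical values (0 pairs).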

Additional observations from a re-analysis of the deposited data

How the results depend on the processing

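The count of called genes was 0 in every fit except that with array weights, which called 1436. The 1063 genes at an unadjusted p under 0.05 became 631 with the filter at the median mean, 5791 with array weights, 2446 without siRNA 1 replicates 1 and 2 together and 2216 without control replicate 2 and siRNA 1 replicate 1 together; the filter tests fewer genes, and the causes of the other moves were not tested. With 1 array left out in turn the count ran from 427 to 4006. Leaving siRNA 1 replicates 1 and 2 out leaves 1 siRNA 1 array, assumed to vary like the other groups. With the replicate number as a block (replicate block) the count was 621. Deviations from the group means correlated at -0.21, -0.34 and -0.05 for arrays with the same number. For arrays with other numbers they ran from -0.21 to 0.41. Deviations within a group offset each other, so these values are not independent. With no positive value among the same-number pairs, a shared number was not read as a pairing.

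The Ppp3cb difference was 0.388 with array weights and passed the threshold there. It turned to -0.029 without siRNA 1 replicate 3, in a range of -0.029 to 0.254 with 1 array left out in turn, and was 0.458 (adjusted p = 0.0956 in limma) without siRNA 1 replicates 1 and 2 together. The 24 genes (the 12 of smallest p in each direction, without gene models) all kept their sign in every alternative that tested them. In each, every siRNA 1 array lay on one side of every control, so leaving arrays out could not turn the sign. Of the 35 list medians 7 kept their sign in all 20 alternatives. Values of genes below the lower quartile on all arrays, 4447 of them, may be background.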

Other observations

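Whole gene families were read after their values were seen, as values with no test. Of 1015 olfactory receptor genes, the odorant receptors of the nose, 736 were higher and 279 lower with siRNA 1, where 58.6% of all genes were higher. Their median was 0.04, and that of the dimmest quintile of all genes was 0.042. Most (902) lay below the lower quartile on every array. The receptors' median was -0.003, 0.085 and 0.026 on siRNA 1 replicates 1, 2 and 3, and 0.006 with quantile normalization repeated. Of 48 keratin genes, filament proteins of epithelia, 42 were higher and 6 lower, beside the same 58.6% (median 0.066), at -0.083, 0.174 and 0.092 on the same arrays, and the median turned to -0.024 when the arrays' lower quartile entered the fit as a covariate. Of 22 matrix metalloproteinases, enzymes that cut the extracellular matrix, 15 were higher and 7 lower (median 0.063), again beside 58.6% of all genes. At an unadjusted p under 0.05 there were 4 higher members, Mmp13, Mmp10, Mmp27 and Mmp7, beside 3.03% of all genes. Mmp10, a stromelysin, read 7.5, 7.52 and 7.51 with control siRNA and 7.73, 7.99 and 7.69 with siRNA 1 (0.29, SE 0.08, adjusted p = 0.87 in limma), and 7.74 and 7.7 with siRNA 2. The median of this family was -0.001 among its members at or above the median gene.

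Of 14 Pramel genes, 8 were lower and 6 higher (median -0.02), from -0.54 for Pramel19 to 0.32 for Pramel27. Pramel20 read 6.92, 7.35 and 7.17 with control siRNA and 6.8, 6.79 and 6.79 with siRNA 1 (-0.35, SE 0.1), so the 3 siRNA 1 arrays stood together below controls that did not. Of 8 Lhx genes 7 were higher and Lhx1 was lower, and of 7 Tmprss11 genes 6 were higher and Tmprss11d was lower; the median of the Lhx genes, 0.06, turned to -0.042 with the lower quartile as a covariate.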
